A study of Mus musculus with 60 samples.

Results

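The regions described here are promoter regions from the study's list of loss-loss regions, restricted to those without a peak in some library. The study describes the listed sites as lower in H3K27me3 in Tet1 KO cells at day 0, recovered by day 2 and without a later gain. H3K27me3 is the repressive histone mark deposited by Polycomb repressive complex 2 at the CpG-rich promoters of developmental genes, where in embryonic stem cells it often lies next to the activating mark H3K4me3. TET1 oxidises 5-methylcytosine and also acts independently of this activity, so that cells without the protein and cells with a catalytically inactive protein need not be alike. A region was chosen by 3 criteria: it was a row of the loss-loss list, it overlapped by at least 1 bp a window of 1.5 kb to either side of the start site of a protein-coding transcript, and it was not overlapped by a peak in all 30 H3K27me3 libraries. Of 792 loss-loss rows, 604 lay at a promoter, 153 of these had a peak in every library, and 451 remained (56.9% of the list). They are called member regions below. They lie at the promoters of 466 protein-coding genes, 431 of them at 1 gene and 20 at more than 1.

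CUT&RUN releases antibody-bound chromatin with a tethered nuclease for sequencing, and it was applied to mouse embryonic stem cells differentiated into anterior neural progenitors. Each of 3 genotypes (Tet1 KO, Tet1 MUT and WT) was sampled at days 0, 2, 3 and 5 of differentiation and at day 5 with 5 µM XAV (day 5 XAV), a Wnt pathway inhibitor given from day 2 on, with 2 cell lines each time. All lines are labelled as B6129S6F1 embryonic stem cells of the Tet1 tm1Koh series: the KO lines lack TET1, the MUT lines are clones in which CRISPR with a repair template inactivated the catalytic site, and the WT lines carry neither change. KO15 was paired with KO25 at days 0 and 2 and with KO1 from day 3, CM59 (MUT) with CM40 and then CM69, and WT70 with WT72 throughout. Days 0 and 2 and the later days therefore differ in their second KO and MUT line as well as in time. Differentiation medium contained bFGF up to day 3 in every group. Replicates are cell lines, and whether separate cultures were made of a line is not stated, so p-values measure the spread between these libraries. The tests of MUT against WT and of later against earlier days count libraries of the same line at different times as if independent. Their p-values therefore do not measure the spread between lines.

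The values available are peaks, called in each library by the authors against its IgG control, and a member region counts as called where a peak overlaps it. Libraries held 704 to 3466 peaks (median 1789). CM40 and WT72 at day 0 held the most (3466 and 3450) and CM59 at day 5 XAV the fewest (704). The number of peaks and the share of member regions called went together in some comparisons and apart in others, so peak numbers are given beside the shares. The part of sequencing depth was not tested, since read numbers are not given in the files.

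The member regions were narrower than the loss-loss promoter rows called in every library, with lower peaks and a similar CpG ratio. Their median width was 7.18 kb (2.26 to 45.6 kb), against 17.5 kb for the 153 loss-loss promoter rows with a peak in every library. In 441 of 451 (97.8%) the start site lay inside the row. The median ratio of observed to expected CpG was 0.408, against 0.419 in the always-called rows and 0.252 in the 188 loss-loss rows away from promoters. Similar values held for promoter rows without a peak in some library from the study's loss-gain list (lower in KO at day 0, then a gain) and gain-gain list (a later gain alone). Their median widths were 7 and 6.74 kb and their CpG ratios 0.397 and 0.382. Where a member region was called, the tallest peak on it stood at a median of the 28.8th to 51.9th percentile of the peaks of its library, against the 67.4th to 90.6th percentile for the always-called rows. The rule set the always-called rows apart by their peaks, so these differences from them are a description. The study's separate list of regions higher in KO at day 5 XAV overlapped 181 member regions (40.1%) and 124 always-called rows (81%).

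Promoter sequences of 6 genes are shown because these genes had some of the largest differences in peak calls described below: Nodal and Epha2 with XAV, Frzb, Hmga2 and Shisal2a over time, and Meox2 between MUT and WT. Each run covers 250 bases before and 50 bases from the start site on (RefSeq, build GRCm38.p6, 5′ to 3′ on the gene's strand), with CpG dinucleotides in capitals.
Nodal, chr10:61417722-61418021, plus strand: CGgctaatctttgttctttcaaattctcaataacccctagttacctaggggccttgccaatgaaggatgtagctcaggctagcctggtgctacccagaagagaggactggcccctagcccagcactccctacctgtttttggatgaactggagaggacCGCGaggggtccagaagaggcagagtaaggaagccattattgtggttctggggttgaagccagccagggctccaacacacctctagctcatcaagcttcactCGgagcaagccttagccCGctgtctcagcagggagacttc
Epha2, chr4:141300971-141301270, plus strand: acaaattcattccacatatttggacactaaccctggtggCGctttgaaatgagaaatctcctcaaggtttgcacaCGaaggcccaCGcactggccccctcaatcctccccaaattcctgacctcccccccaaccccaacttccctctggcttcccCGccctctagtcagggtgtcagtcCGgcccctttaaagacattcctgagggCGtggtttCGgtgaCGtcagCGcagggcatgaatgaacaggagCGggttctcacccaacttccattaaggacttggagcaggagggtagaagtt
Frzb, chr2:80447347-80447646, minus strand: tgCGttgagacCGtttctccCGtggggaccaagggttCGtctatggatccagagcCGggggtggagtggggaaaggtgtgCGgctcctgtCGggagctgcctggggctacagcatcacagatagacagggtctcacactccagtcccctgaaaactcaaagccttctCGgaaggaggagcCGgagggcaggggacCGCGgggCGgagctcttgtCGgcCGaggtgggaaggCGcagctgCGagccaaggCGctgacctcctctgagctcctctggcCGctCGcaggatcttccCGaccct
Hmga2, chr10:120476420-120476719, minus strand: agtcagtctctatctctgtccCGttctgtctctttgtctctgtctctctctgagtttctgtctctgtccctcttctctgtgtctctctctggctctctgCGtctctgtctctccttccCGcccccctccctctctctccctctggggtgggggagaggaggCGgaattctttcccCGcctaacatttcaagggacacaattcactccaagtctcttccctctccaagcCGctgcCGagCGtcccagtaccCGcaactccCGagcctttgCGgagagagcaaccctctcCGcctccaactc
Shisal2a, chr4:108383606-108383905, minus strand: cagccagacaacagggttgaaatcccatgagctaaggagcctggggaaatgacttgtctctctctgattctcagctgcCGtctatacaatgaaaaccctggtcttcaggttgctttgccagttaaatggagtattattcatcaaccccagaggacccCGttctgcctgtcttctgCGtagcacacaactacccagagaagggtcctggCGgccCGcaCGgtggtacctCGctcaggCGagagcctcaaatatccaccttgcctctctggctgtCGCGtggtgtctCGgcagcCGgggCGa
Meox2, chr12:37108290-37108589, plus strand: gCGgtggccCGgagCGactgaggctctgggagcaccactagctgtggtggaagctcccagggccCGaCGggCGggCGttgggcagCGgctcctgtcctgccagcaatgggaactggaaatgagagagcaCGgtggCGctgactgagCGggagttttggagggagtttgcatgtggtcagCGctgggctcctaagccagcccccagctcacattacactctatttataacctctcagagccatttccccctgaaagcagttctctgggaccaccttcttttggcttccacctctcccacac
The windows differ in CpG content, with 5 CpG at Nodal, 10 at Epha2, 20 at Frzb, 12 at Hmga2, 13 at Shisal2a and 12 at Meox2. Of the 466 genes, 324 were matched by symbol to a RefSeq window and 299 had a window overlapping a member region. Over the 441 windows that overlapped member regions the median was 18 CpG, against 17 in 282 windows at always-called rows and 7 in all 32851 windows. The motif GGGCGG, bound by SP and KLF factors, was present on one or the other strand in 59.2% of windows at member regions, 46.1% at always-called rows and 35.7% of all windows. The motif CTTTGAT, bound by the TCF/LEF factors of the Wnt pathway, was found on either strand in 4 of the 441 windows (0.907%), in 4.61% at always-called rows and in 3.73% of all windows. None of the 6 printed windows holds it. Median GC was 62.3% in windows at member regions, 58.5% at always-called rows and 52.7% in all windows. The motif shares were not adjusted for this, and differences between them were not tested.

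Genes of several lists lay at member regions, in numbers that are a small part of the 466. From the list of Wnt ligands, receptors and modulators, 10 of 58 genes lay at member regions and 1 (Wnt11) at an always-called loss-loss promoter row. From the BMP, Nodal and TGF-beta list it was 11 of 52 and 1 (Gdf6), from the FGF list 5 of 26 and 1 (Fgf3), and from the list of neurotransmitter and peptide receptors 11 of 97 and 1 (Adra2a). Primitive streak regulators were at 7 and 11 of 26, forebrain and eye field regulators at 10 and 14 of 42, and Hedgehog, Notch and retinoic acid genes at 5 and 5 of 38. None of 39 Hox genes lay at a member region and 21 at always-called rows, and neuron identity and proneural factors were at 1 (Isl1) and 19 of 42. Over all 21910 protein-coding gene names the shares were 2.13% at member regions and 0.908% at always-called rows. None of 25 housekeeping genes and none of 23 TET, DNMT and Polycomb genes was at either, and of 22 pluripotency factors 1 (Prdm14) was at a member region and 1 (Tbx3) at an always-called row. The number of libraries called defines which set a row belongs to, so these counts are a description of the sets.

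**Figure D1:**
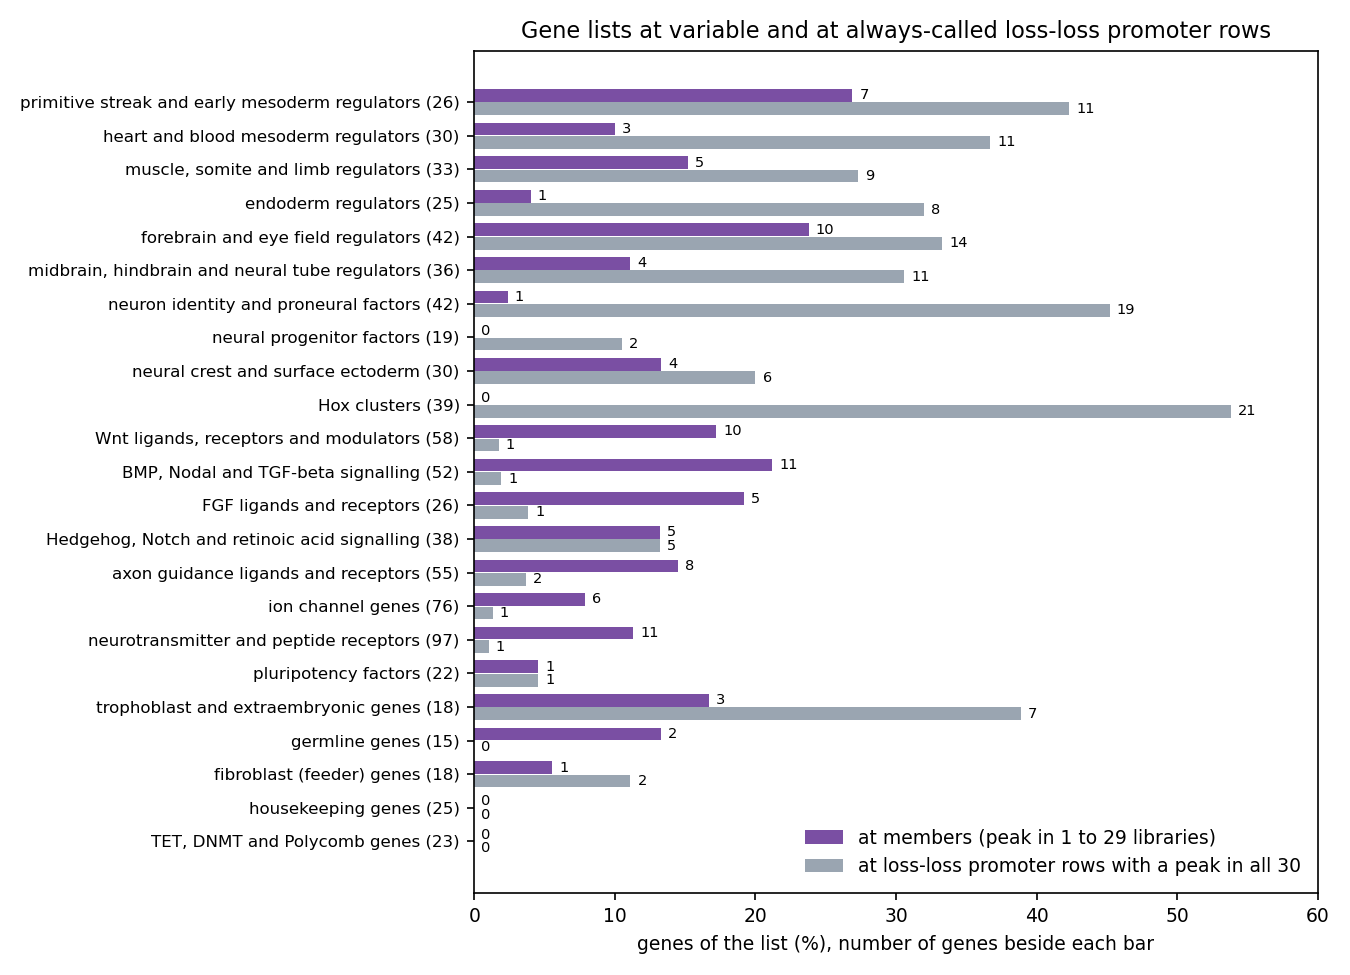
Percent of the genes of each list (horizontal axis, number of genes in parentheses on the vertical axis) that lie at member regions or at loss-loss promoter rows with a peak in all 30 libraries, with the number of genes beside each bar. The Wnt list has 10 genes at member regions and 1 at always-called rows, primitive streak regulators 7 and 11, and Hox genes 0 and 21.

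Member regions ranged from almost always to almost never called. A median region was called in 10 of 30 libraries, 30 regions in 29 libraries, 96 in 1 to 3. Among the 30 regions that missed a single library, this library was CM59 at day 5 XAV for 13 and KO15 at day 0 for 4. Prdm14, a regulator of germ cells and pluripotency, and Tfap2b, a neural crest factor, were uncalled only in KO15 at day 0. Bmp2, Foxc1 and Isl1 were uncalled only in KO1 at day 5. On the other side of this threshold, the rows of Sox17, Pou3f3, Nrp2 and Ihh, for example, were called in every library. At the promoter threshold, the rows of Chd7, Ccdc102a and Smad7 ended 1306, 1398 and 1403 bp from a start site and were kept. Rows at 1594, 1677 and 1861 bp from start sites of Sod3, Meis2 and Lats2 were not. Meis2 and Lats2 each also have another row that is a member region.

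Regions called in few libraries had most of their peaks in 3 day 0 libraries. Of the 96 regions called in 1 to 3 libraries, 30 were called in KO25, 76 in CM40 and 75 in WT72 at day 0, and 0 in KO15 and 0 in WT70 at day 0. Among the other libraries, KO15 at day 5 XAV called the most of them (12) and CM59 at day 5 followed (11). Of the 45 regions called in exactly 2 libraries, 36 had their peaks in CM40 and WT72 at day 0, the libraries with most peaks. Arfgef1, Rnf152, Tmcc3, the netrin receptor gene Dcc and the neurokinin receptor gene Tacr3 were of this kind. The region called in the fewest libraries was that of the imprinted gene Peg10 and its divergent neighbour Sgce, with 1 peak, in WT70 at day 2. Regions called in 1 to 3 libraries had a median width of 4.42 kb and those called in 27 to 29 libraries of 11.7 kb, whereas the CpG ratio was 0.399 and 0.415. At day 0, 52 of 451 regions had no peak in any of the 6 libraries. The list was made from read numbers, which the peak calls do not hold.

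KO and WT values chose the list, and they are given here without a test. At day 0, 36.1% and 57.9% of member regions were called in the KO lines, against 32.4% and 84.3% in the WT lines, a difference of -11.3 points between means that lies within the spread of the WT lines (SD 36.7). At day 2 the KO lines had 31.3% and 53%, below both WT lines with 65.4% and 56.1% (-18.6 points). At day 3, 32.6% and 26.8% in KO stood against 16% and 27.1% in WT, and at day 5, 26.2% and 41% in KO against 28.2% and 32.4% in WT, with overlapping lines each time. By peak calls as deposited, the KO mean was thus not below the WT mean at days 3 and 5. Peak numbers also differed: both KO libraries held more peaks than both WT libraries at day 3 (1877 and 1849, against 969 and 1135) and at day 5 (2122 and 2738, against 1270 and 1385).

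With the same number of peaks taken from each library of a time point, those of highest total signal, both KO lines lay below both WT lines at every time without XAV. The lines of a genotype differed most in MUT at day 2 (SD 4.39) and in WT at day 3 (SD 3.61). This alternative was chosen after seeing the data. At day 0 (1484 peaks), 23.7% and 23.1% of member regions were called in KO, 35% and 32.8% in MUT, and 32.4% and 31.5% in WT. At day 2 (1317 peaks) the values were 31.3% and 30.2% in KO, 34.1% and 27.9% in MUT, and 37.9% and 38.1% in WT. At day 3 (969 peaks) they were 13.5% and 10.4% in KO, 18.6% and 17.7% in MUT, and 16% and 21.1% in WT. KO and WT lines were furthest apart at day 5 (1191 peaks), with 11.8% and 11.3% in KO, 21.5% and 20% in MUT, and 26.2% and 26.6% in WT. KO minus WT was -8.54 points at day 0, -7.32 at day 2, -6.54 at day 3 and -14.9 at day 5, with KO lower in 4 of 4 pairs of lines each time. A share at equal peak number is relative to the other peaks of the library: at day 5 the same count gave 26.1% and 25.9% in KO against 13.9% and 15% in WT for the 1090 variable gain-gain promoter rows, regions chosen for more signal in KO.

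**Figure D2:**
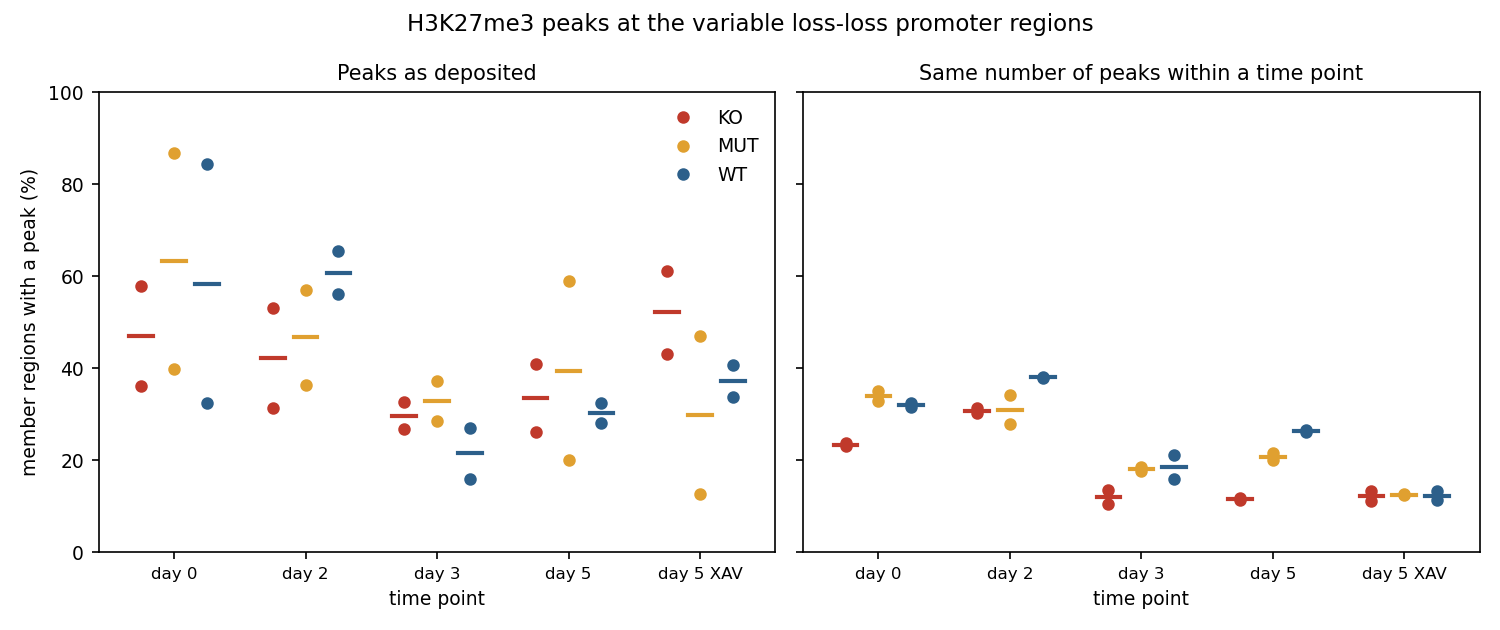
Share of the 451 member regions called per library (vertical axis, %) at each time point (horizontal axis), with peaks as deposited on the left and the same number of peaks per library within a time point on the right. Points are lines and bars are means of 2 lines. On the right KO lies below WT at days 0 to 5 and at day 5 XAV the means are 12.2% in KO and 12.3% in WT.

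At day 5 XAV, whose libraries did not enter the loss-loss list, KO was above WT by deposited peaks, and at equal peak number the order depended on the number taken. KO lines had 43% and 61.2% of member regions called, against 33.7% and 40.8% in WT lines, with KO higher in 4 of 4 pairs and a difference of 14.9 points. With 704 peaks per library the values were 11.1% and 13.3% in KO and 13.3% and 11.3% in WT, which overlap. Because CM59 sets that number, the 5 other libraries were also compared at 1407 peaks, which gave 35.5% and 36.1% in KO, 33.9% in CM69 and 33.7% and 32.6% in WT, with both KO lines above both WT lines. With 2 lines a genotype, no test of these shares was made. From read signal, the study reports a gain in KO and not in MUT with XAV for this list, as for its loss-gain and gain-gain lists.

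Region by region, the share of member regions that separated KO from WT at day 5 XAV was close to that over all loci. Both KO lines and neither WT line were called at 34 of the 151 member regions that varied among these libraries (22.5%), against 22.6% of all 1281 such loci. Among the widest were those of Efnb1, which encodes an ephrin ligand, Mapkapk2, a stress-activated kinase, the morphogen gene Bmp4, and Slc35g2, with widths of 45.6, 23.3, 20.9 and 20.2 kb. Both WT lines and neither KO line were called at 2, against 1.25% of loci, and one of these was the region of Nkx2-6, a heart and pharyngeal factor.

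The same separation at earlier times, where KO and WT chose the list, is given with the share over all loci. Both WT and neither KO line were called at 6 of 265 varying regions at day 0 (2.26%, against 0.601% of all varying loci). At day 2 it was 28 of 172 (16.3% against 9.99%), at day 3 2 of 112 (1.79% against 0.674%) and at day 5 7 of 111 (6.31% against 0.93%). Both KO and neither WT line were called at 0 of them at day 0 (0% against 0.328% of all varying loci) and 0 at day 2 (0% against 0.99%). At day 3 it was 24 (21.4% against 41.7%) and at day 5 12 (10.8% against 50.3%).

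MUT libraries did not enter the loss-loss list, but the WT libraries they are set against did. As deposited, MUT lines had 86.7% and 39.9% of member regions called at day 0, against 32.4% and 84.3% in WT, and at day 2, 57% and 36.4%, against 65.4% and 56.1% in WT. They had 37.3% and 28.6% at day 3, above both WT lines (16% and 27.1%). CM59 and CM69 had 59% and 20% at day 5, and 12.6% and 47% at day 5 XAV, on either side of the WT lines. At equal peak number both MUT lines were below both WT lines at day 2 (-6.98 points) and day 5 (-5.65 points) and above both at day 0 (2 points), and the lines overlapped at day 3 and day 5 XAV. At day 5 they were then above both KO lines (20.7% ± 1.1 in MUT and 11.5% ± 0.314 in KO, SD, n = 2 lines). KO libraries entered the list too, which holds regions without a later gain in KO, so its choice favours a low KO share here.

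No member region passed the test of MUT against WT. The number of MUT libraries called was compared with that of WT libraries locus by locus with an exact conditional test within time points, two-sided, and adjusted by the Benjamini-Hochberg method over 2958 loci. Among 431 member regions tested, 0 rose and 0 fell, as over all loci (0% in each direction). Unadjusted p was under 0.05 for 5 member regions and 12 loci, and the smallest p the design allows is 0.000257. A single locus at that p would not pass adjustment over 2958 loci by itself. Meox2, a factor of limb and somite muscle, was called in 1 of 10 MUT and 7 of 10 WT libraries (-60 points, exact p = 0.0139, adjusted p = 1). Nkx2-6 and the Wnt antagonist gene Dkk2 were each called in 4 MUT and 9 WT libraries (-50 points), as was the myogenic factor Myod1. Nfia, a glial factor whose promoter region also holds E130114P18Rik, was called in 9 of 10 MUT and 3 of 10 WT libraries (60 points, exact p = 0.0139, adjusted p = 1). Abtb2, Ism2, Esx1 and Bicc1 followed at 40 points each.

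Both MUT lines rarely stood together against both WT lines, except at days 2 and 3. Both MUT and neither WT line were called at 0 of 264 varying regions at day 0 (0%, against 0.208% of all varying loci). At day 2 it was 1 of 151 (0.662% against 0.966%), at day 3 22 of 118 (18.6% against 25.8%) and at day 5 1 of 190 (0.526% against 4.76%). At day 5 XAV it was 2 of 178 (1.12% against 0.319%). Both WT and neither MUT line were called at 0 at day 0 (0% in both) and 25 at day 2 (16.6% against 8.26%). At day 3 it was 1 (0.847% against 0.268%), at day 5 4 (2.11% against 0.427%) and with XAV 7 (3.93% against 2.63%).

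After day 2 most member regions had a peak in fewer libraries by the peaks as deposited, and the difference was smaller at equal peak number. Over the 12 libraries of days 3 and 5, 16% to 59% of member regions were called (median 28.4%), against 31.3% to 86.7% (median 54.5%) over the 12 libraries of days 0 and 2. The means were 31.7% ± 6.88 and 44.6% ± 12.9 in KO, 36.2% ± 16.7 and 55% ± 23 in MUT, and 25.9% ± 7 and 59.5% ± 21.6 in WT (later, then earlier days, SD, n = 4 libraries). Peaks fell in number too, to a median of 1541 per library at days 3 and 5, against 1964 at days 0 and 2. The mean share of member regions called differed by -21.8 points as deposited, by -4.12 points at 969 peaks per library and by -2.64 points at 704. Tested within genotypes with the same exact conditional test, 22 of 415 member regions fell (5.3%) and 1 rose (0.241%), against 3.06% and 0.223% of all 3139 loci. Of the 415, 338 had a lower share in the later libraries and the median difference was -25 points, against -16.7 points over all loci. KO and WT libraries of these days chose the lists, and the loss-loss list holds regions without a later gain in KO. Of the 3139 loci, 1261 gain-gain and 600 loss-gain rows were chosen for such a gain. Of 580 tested merged peak regions in none of the study's lists, 2.93% fell and 0.517% rose. Of these 580, 79.8% had a lower share, against 81.4% of member regions. With the line as a replicate block, which keeps only WT70, WT72, KO15 and CM59, 0 of 321 member regions passed the exact test (smallest adjusted p = 0.466), and their median difference was -25 points. The smallest p this block allows is 0.00154 before adjustment over 2418 loci, so the missing calls say little. At 969 peaks per library, a number chosen after seeing the data, 2 member regions fell and 1 rose. Of the 23 member regions that passed by the peaks as deposited, 1 (Rgma) still passed. All others described in the next paragraphs as passing, among them Hmga2, Frzb, Edaradd, Zmiz1 and Shisal2a, did not.

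Rgma, which encodes a BMP co-receptor that also guides axons, had a peak in 0 of 12 libraries at days 3 and 5 and in 12 of 12 at days 0 and 2, in all 3 genotypes (exact p = 5.83e-06, the smallest possible, adjusted p = 0.00366). Frzb, a secreted Wnt antagonist, and Hmga2, a chromatin protein of early embryonic cells, were each called in 1 of 12 later libraries, CM59 at day 3, and 12 of 12 earlier ones (exact test, adjusted p = 0.00482). Edaradd, Irf2, Lingo4 and Zmiz1 were called in 0 later and 11 earlier libraries (exact test, adjusted p = 0.00482). In each of these 7 regions the later and earlier libraries hardly overlap. The peak at Frzb covered 52.4% to 100% of the region at days 0 and 2, 43.6% in CM59 at day 3 and 0% in the other later libraries. None of the 7 had a peak at day 5 XAV either.

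Other regions that fell by the peaks as deposited include those of 4 genes of the fixed lists. Lgr5, the R-spondin receptor of the Wnt pathway, was called in 0 of 12 later and 9 of 12 earlier libraries (exact test, adjusted p = 0.0305), and Fst, the activin and BMP antagonist follistatin, in 0 and 8 (adjusted p = 0.0397). Twist1, a mesoderm and neural crest factor that fibroblasts also express, was called in 0 and 9 (exact test, adjusted p = 0.0305), and Eya4, a transcriptional cofactor, in 1 and 10 (adjusted p = 0.0397). Slitrk3, Egflam, Meis2, Ntng1, P3h2, Pkdcc, Ptprt, Rasgef1b, Alox15 and Tac1 were also among the 22. The Meis2 member region was called in 2 later and 11 earlier libraries. The other Meis2 row, 1677 bp from a start site and not a member region, was called in 28 of 30 libraries. The region that rose was that of Shisal2a, called in 12 of 12 later and 3 of 12 earlier libraries (75 points, exact test, adjusted p = 0.0221), which at days 0 and 2 had peaks in CM40, WT70 and WT72 at day 2. Dusp9, Pura, Epb41l1 and Epas1 had the next largest positive differences (33.3 to 58.3 points) without passing.

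By list, the counts are set beside the share of loci that were lower at days 3 and 5. It was 70% over all loci tested, 81.4% in member regions and 79.8% in merged peak regions outside the study's lists. All 10 member regions of the Wnt list had a lower share of called libraries at days 3 and 5, with a median difference of -45.8 points, and 2 (Frzb and Lgr5) passed. Wnt8a, a primitive streak ligand, and Rspo3, a ligand of Lgr5, were each called in 0 of 12 later and 8 of 12 earlier libraries (exact test, adjusted p = 0.052). Dkk1, a Wnt antagonist of the anterior embryo, was called in 7 and 12, and the primitive streak ligand Wnt3 in 9 and 12 (exact test, adjusted p = 0.261 and 0.563). Of 10 tested regions of the BMP, Nodal and TGF-beta list, 7 had a lower and 3 a higher share, which is the share over all loci, and 1 (Fst) passed. The difference between the lists was not tested. Bmp7 was called in 5 later and 10 earlier libraries (exact test, adjusted p = 0.416), and Bmp4 in 11 and 8 (adjusted p = 0.716). Bmp7 and Id1, a BMP target, were called in 5 of 6 libraries at day 3 each and in 0 of 6 at day 5. Among midbrain, hindbrain and neural tube regulators, all 4 regions had a higher share later and 0 passed. Olig1, an oligodendrocyte and motor neuron factor, was called in 0 of 6 libraries at day 0 and 6 of 6 at day 5, and Gbx2, a hindbrain factor, in 3 and 6.

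**Figure D3:**
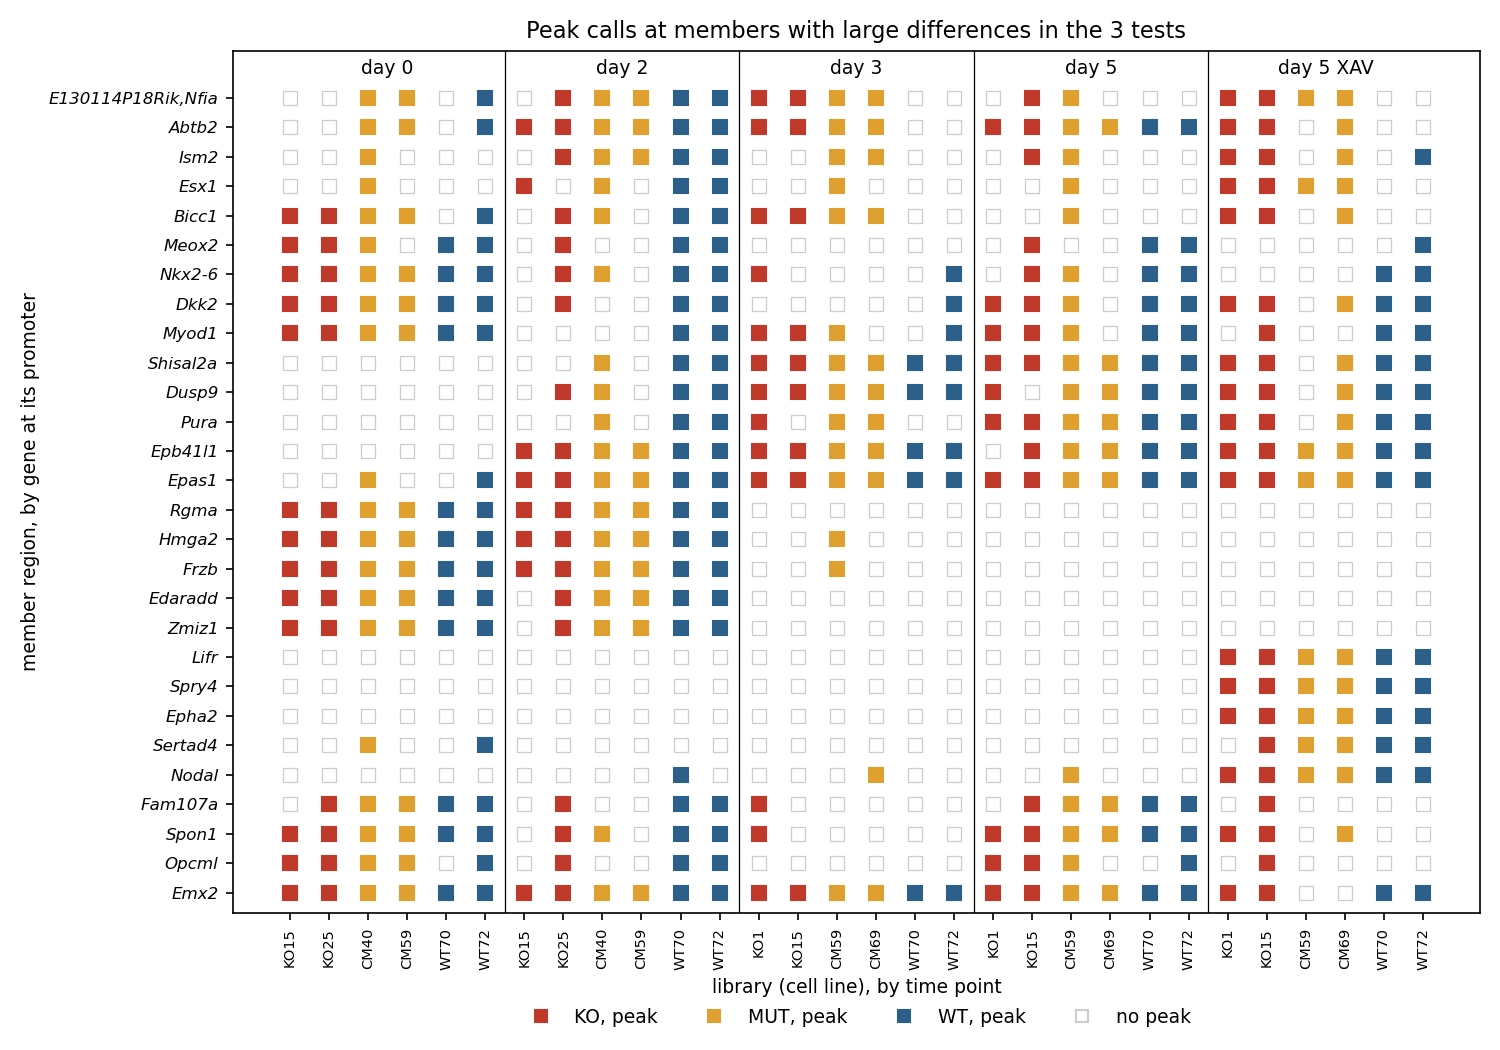
Peak calls (filled square, peak; open square, no peak) at member regions with large differences in the 3 locus tests (vertical axis) in each of the 30 libraries (horizontal axis, by time point and line). Rgma, Hmga2 and Frzb were called in all 12 libraries of days 0 and 2, and Epha2, Spry4 and a region of Lifr in the 6 XAV libraries alone.

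With XAV, a larger share of member regions was called in 5 of 6 lines by the peaks as deposited. KO1 had 43% called at day 5 XAV against 26.2% at day 5, KO15 61.2% against 41%, CM69 47% against 20%, WT70 33.7% against 28.2% and WT72 40.8% against 32.4%. CM59 had 12.6% against 59%, with 704 peaks against 2847. Peaks were fewer with XAV in KO1 (1729 against 2122) and KO15 (2461 against 2738), and more numerous in CM69 (1924 against 1191), WT70 (1407 against 1270) and WT72 (1717 against 1385). At 704 peaks per library the share was 11.1% with XAV against 4.43% in KO1, 13.3% against 5.32% in KO15, 12.6% against 8.2% in CM59, 12.4% against 7.32% in CM69 and 13.3% against 12.4% in WT70. WT72 had 11.3% against 13.5%, so that the line without a larger share was WT72 and not CM59. For the 1090 variable gain-gain promoter rows the KO lines moved the other way, with 37.9% and 61.1% at day 5 XAV against 59.4% and 76.8% at day 5. These rows were chosen for a gain in KO up to day 5, so a high KO share at day 5 was part of their choice.

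**Figure D4:**
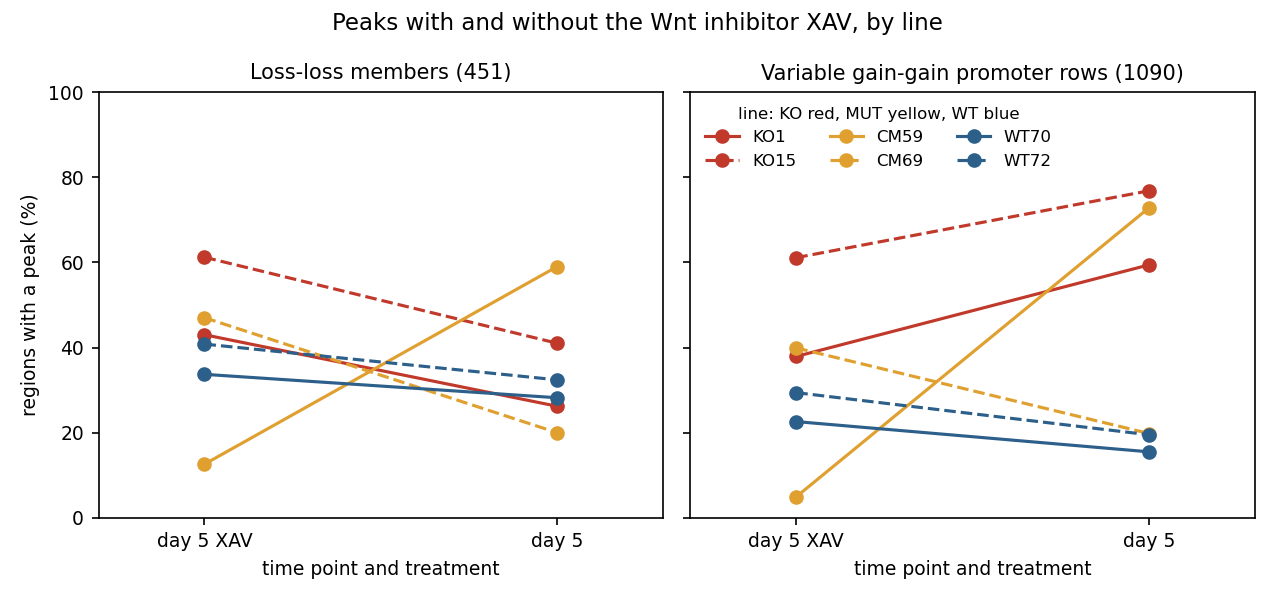
Share of regions called (vertical axis, %) at day 5 XAV and at day 5 (horizontal axis), with 1 line for each cell line, for the 451 member regions and for 1090 variable gain-gain promoter rows. By the peaks as deposited, member regions are higher with XAV in every line but CM59, and gain-gain rows are lower with XAV in both KO lines and in CM59. Gain-gain rows were chosen for a gain in KO up to day 5 without XAV.

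The regions of Epha2, Spry4 and Nodal and 1 region of Lifr had a peak in every XAV library. The region over the promoter of Epha2, which encodes an ephrin receptor, was called in KO1, KO15, CM59, CM69, WT70 and WT72 at day 5 XAV and in 0 of the 24 libraries without XAV. Peaks covered 41.3%, 95.6%, 42.5%, 49.9%, 25.1% and 26.1% of it in these 6 libraries and their height was at the 41.8th to 81.8th percentile of the library. The same pattern, 6 of 6 and 0 of 24, held for Spry4, a feedback inhibitor of FGF signalling, and for 1 of the 2 member regions of Lifr, the receptor of leukaemia inhibitory factor. Nodal, the ligand of primitive streak induction, was called in 6 of 6 XAV libraries and in 1 of 6 at day 5 (CM59), and over days 0 to 3 in WT70 at day 2 and CM69 at day 3 alone. Its peak covered 69.1% to 96.7% of the region with XAV. Sertad4 was called in 5 XAV libraries and 0 at day 5.

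None of these passed adjustment. Within genotypes the exact test gave p = 0.00926 for Epha2, Spry4 and Lifr, the smallest 6 libraries against 6 can reach, and p = 0.0278 for Nodal and Sertad4, and after adjustment over 2105 loci 0 of 246 member regions rose and 0 fell (adjusted p = 1), as over all loci (0% in each direction). Unadjusted p was under 0.05 for these 5 member regions and for 14 loci. Of the 246, 120 had a higher and 72 a lower share with XAV, against 27% higher and 54.1% lower over all loci. Without the line CM59, which leaves 5 libraries on each side, 153 of 195 member regions were higher (78.5%) and 26 lower (13.3%), against 50.9% higher and 31% lower over all loci. List choice limits both comparisons, since day 5 KO and WT libraries entered the loss-loss, loss-gain and gain-gain lists. Of the 2105 loci, 976 gain-gain and 482 loss-gain rows were chosen for a later gain in KO, and 65.2% and 65.8% of them were lower with XAV. Of 216 tested merged peak regions in none of the study's lists, 44% were higher and 36.6% lower.

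By list, 7 of 9 tested regions of the BMP, Nodal and TGF-beta list had a higher share with XAV and 1 a lower one, 6 of 7 of the primitive streak list, and 4 of 7 of the Wnt list with 0 lower. Among all tested member regions 48.8% were higher and 29.3% lower, and over all loci 27% and 54.1%. These counts include CM59, which held 704 peaks at day 5 XAV. Mixl1, an early streak factor, was called in 6 of 6 XAV and 4 of 6 day 5 libraries, Dkk1 in 5 and 2, and Lefty1, a Nodal antagonist, in 5 and 3. Cfc1, a co-receptor of Nodal, had its only 2 peaks at day 5 XAV. Bmp4 went the other way, with 3 and 5. Forebrain and eye field regulators had a higher share in 1 and a lower one in 5 of 8. Emx2, a cortical factor, was called in 4 of 6 XAV and 6 of 6 day 5 libraries. The XAV libraries that lacked it were those of the MUT lines CM69 and CM59, the latter with the fewest peaks of all libraries. Fam107a had the largest negative difference (-66.7 points, exact p = 0.12), followed by Abtb2, Spon1 and Opcml (-50 points). Among member regions, 18 had no peak at day 0 or day 2, 131 (29%) had none at day 3, day 5 or day 5 XAV, and 77 (17.1%) had peaks at day 0 alone.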

How the data were processed

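Per the labels and methods, the authors trimmed the read pairs, mapped them to GRCm38.p6 (mm10) using Bowtie, dropped duplicates (Picard) and ran SEACR library by library with stringent settings and IgG as control. The deposited peak files hold the total and maximum signal of each peak, without scaling for library size, which served here to order the peaks of one library. The deposited region lists hold positions alone and were made by the authors with DiffBind 3.0.15 from KO and WT reads. The 30 IgG samples entered through peak calling. The KO25 samples at days 0 and 2 carry a free-text description naming WT70, while title, cell line and genotype name KO25 and were followed.

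Start sites came from GENCODE M21. Loci tested were the rows of the 4 lists plus 648 merged peak regions called in at least 2 libraries that overlap none, 3855 in all, and each test used loci called in at least 2 but not all of its libraries. A locus was called when 1 bp overlapped a peak, and calls had an adjusted p under 0.05. MUT and WT share no line. Day 5 and day 5 XAV share their lines, whose differences correlated over member regions at 0.138 in KO, -0.321 in MUT and -0.00949 in WT. The test was checked on simulated data with known answers, with calls drawn independently in each library. Dependence between libraries of the same line was not part of that check.

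Named genes were those with most and fewest called libraries in each of 23 gene lists (786 genes matched), with the largest differences in each test, nearest the thresholds, or widest among regions that separate KO from WT at day 5 XAV. Some genes that this rule names are not reported here. Other genes were named after their values were seen. The member regions and lists were chosen with earlier results of these data known. Python 3.11.15, NumPy 2.4.6, SciPy 1.17.1, pysam 0.24.0, samtools 1.23.1 and Matplotlib 3.10.9 were used.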

Additional observations from a re-analysis of the deposited data

Results flagged for a closer look

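The difference between KO and WT in the share of member regions called had opposite signs at 2 time points, with all 4 pairs of lines on one side each time. KO minus WT was 14.9 points at day 5 XAV, where KO was higher in 4 of 4 pairs, and -18.6 points at day 2, where it was higher in 0 of 4. The change of sign between the time points was not tested, and day 2 libraries of KO and WT entered the choice of the list. It was not particular to member regions. KO minus WT at day 2 and day 5 XAV was -21.2 and 14.7 points in variable loss-loss rows away from promoters. It was -17 and 26 points in variable loss-gain promoter rows, and -2.89 and 23.5 points in variable gain-gain promoter rows. Both KO libraries at day 5 XAV held more peaks than both WT libraries (1729 and 2461, against 1407 and 1717), and at day 2 KO15 held fewer (1317, against 2185 and 1856). With equal peak number within the time point the differences for member regions were -0.111 and -7.32 points. Without CM59, which set the number at day 5 XAV, 1407 peaks per library gave 35.5% and 36.1% in KO, against 33.7% and 32.6% in WT.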

How the results depend on the processing

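Alternatives at equal peak number within a time point or test, and those without single libraries, were chosen after seeing the data. For days 3 and 5 against days 0 and 2, 22 member regions were lower and 1 higher. With stricter peaks 5 and 0 passed, with 704 peaks per library 4 and 2, and with 969 peaks 2 and 1. In each of these settings 1 of the 23 regions passing as deposited was kept, so the others that passed were different regions. When peaks had to cover most of a region, 28 and 1 passed, and 14 of the 23 were kept. With the line as a replicate block 0 and 0 passed. Leaving out 1 line gave 7 to 17 lower (7 without WT72, 8 without WT70) and 0 to 1 higher. The share of member regions called, later minus earlier days, was -2.64 points at 704 peaks and -4.12 at 969. KO minus WT at day 3 was -1.44 points when peaks had to cover most of a region, -4.88 at 704 peaks and -6.54 at equal number within the time point, at day 5 -8.09 and -14.9 for the last 2, at day 5 XAV -0.111 for both, and at day 2 -3.44 at 704 peaks. MUT minus WT at day 3 was 3.22, -0.998 and -0.333 points. Single regions changed direction: Bicc1 in MUT (-20 when peaks had to cover most of it, -10 with stricter peaks), Pura over time (-8.33 with stricter peaks and at 969), Epb41l1 (-8.33 at 704) and Abtb2 with XAV (16.7 with stricter peaks). Causes were not tested. No paired analysis was possible because MUT and WT share no line, and for XAV the replicate block gave 0 and 0 calls. The smallest p the exact test allows with that block is 0.0312 before adjustment over 2105 loci, so its missing calls say little. Read depth is unknown, so a missing peak does not show that the mark was absent.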
